A study of Homo sapiens with 5 samples.

Results

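DNase I hypersensitive peaks lying next to the centromeres of 10 human chromosomes were described in 5 cell lines. Members were all listed peaks that overlapped, by at least 1 bp, one of 11 windows in hg18. In Mb, the windows were 120-144 on chromosome 1, 88-88.8 and 90.5-97 on chromosome 2, 47-54 on chromosome 4, 45-51 on chromosome 5, and 57-64 on chromosome 6. The others were 56-64 on chromosome 7, 43-49 on chromosome 8, 38-43 on chromosome 10, 48-57 on chromosome 11, and 31-48 on chromosome 16. They span 96.3 Mb and were chosen by position, with no use of peak scores. In all, 4270 of the 109231 peaks on chromosomes 1 to 22 and X were members. The short and long arms meet inside every window except the narrow one on chromosome 2, which lies apart on the short arm.

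Centromeres are built on long arrays of alpha satellite, a tandem repeat, and are flanked by other satellites and by recently duplicated segments. This DNA is packed mostly as heterochromatin, which nucleases enter poorly. In the hg18 assembly the core arrays are largely missing and stand as gaps, and copies of their repeats are found at the borders of those gaps. Which peaks lie on repeats was not analysed here.

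Each line gave 1 DNase-seq library and 1 peak list. L1236, L428 and L591 are Hodgkin lymphoma lines. Reh is a pro-B lymphoblastic leukaemia line and Namalwa a Burkitt lymphoma line, and both are labelled non-Hodgkin. All were at passage 7, without treatment other than DNase I on isolated nuclei, with 12 U/ml labelled for Namalwa and L591 and 6 U/ml for the remaining lines. The name inside the L591 list carries a 6 of unstated meaning beside the line's name, so its concentration is uncertain, and values within a concentration below follow the label. The lists held 23288 to 27925 peaks, except that of Namalwa with 5760. Read depth is unknown. The names inside 4 of the files carry the mark qcTrimmed and those of L1236 do not, so for L1236 the line and this difference in processing cannot be told apart. Cell type markers were not looked up, because the lists give positions without genes.

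The share of a list that lay in the windows varied between lines, and the Hodgkin and non-Hodgkin lines overlapped. L1236 had 1641 window peaks (6.40% of its list, exact 95% interval 6.10 to 6.71). L428 had 544 (2.34%, 2.15 to 2.54) and L591 had 604 (2.27%, 2.09 to 2.46). Reh had 1111 (3.98%, 3.75 to 4.21) and Namalwa had 370 (6.42%, 5.80 to 7.09). L1236 and Namalwa were thus the highest, 1 from each group, and L428 and L591 the lowest. The intervals are Clopper-Pearson intervals and cover counting error only.

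The Hodgkin mean was 3.67% ± 2.36 (SD, n = 3) against 5.20% in the non-Hodgkin lines (n = 2). The difference of -1.53 percentage points was smaller than the spread within groups (two-sided exact permutation p = 0.5, adjusted 0.8 over 2 measures, where 0.1 is the smallest possible p). At 6 U/ml the mean of L1236 and L428 was 0.389 points above Reh, with L1236 above it and L428 below it, and at 12 U/ml the difference of L591 from Namalwa was -4.15 points (2.27% against 6.42%). With L591 counted at 6 U/ml instead, the Hodgkin mean there was 3.67% against 3.98% in Reh, and no Hodgkin line was left at 12 U/ml. With the lists cut to equal length (5760 peaks) the shares were 8.14% in L1236, 6.42% in Namalwa, 3.96% in Reh, 3.39% in L428 and 3.21% in L591.

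The windows did not contribute alike. Chromosome 11 supplied 247 peaks in L1236 and 10 to 22 in each of the other lines. Chromosome 7 supplied 235 in L1236, 63 in Reh, 26 each in L428 and L591 and 23 in Namalwa. Chromosome 10 held 209 in L1236 and 35 to 67 in the others. In those windows L1236 had the highest share of its list, 0.815% to 0.963%. Namalwa followed on chromosome 10 with 0.608% of its short list, against 0.184% to 0.240% in L428, L591 and Reh. No test of L1236 against the other lines was possible, since it is 1 library.

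Reh was highest on chromosome 1, with 378 peaks, or 34.0% of its window peaks, against 127 in L1236, 103 in L591, 74 in L428 and 43 in Namalwa. Chromosome 4 was rich in peaks in every line, from 80 in Namalwa and 83 in L428 to 105 in L591, 176 in Reh and 185 in L1236. In Namalwa this was the largest share, 21.6% of its window peaks. The chromosome 6 window was poor throughout, with 6 to 27 peaks, and the narrow chromosome 2 window held 2 to 11.

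**Figure D1:**
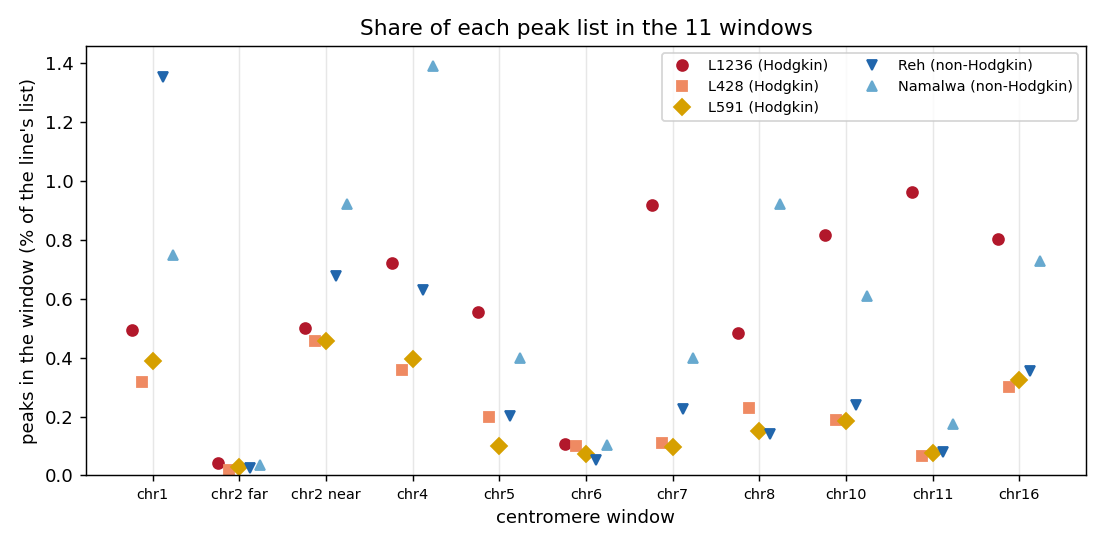
Percent of each line's peak list (vertical axis) that lies in each of the 11 windows (horizontal axis), 1 point per line, 1 library a line. "chr2 far" is the 88 to 88.8 Mb window and "chr2 near" the 90.5 to 97 Mb window. L1236 stands above the other lines on chromosomes 7, 10 and 11, whereas Reh is highest on chromosome 1 and Namalwa on chromosome 4.

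Both Hodgkin-against-non-Hodgkin differences that separated the lines went the same way. On chromosome 1 the Hodgkin lines had 0.400% ± 0.0894 of their peaks (SD, n = 3) and the non-Hodgkin lines a mean of 1.05%, from 1.35% in Reh and 0.747% in Namalwa. In the larger chromosome 2 window the values were 0.470% ± 0.0255 (SD, n = 3) against 0.798%. In the other 9 windows the groups overlapped. The smallest exact permutation p over the 11 windows was 0.1, the lowest the design allows, and 0.55 after Benjamini-Hochberg adjustment, so no window passed. Over the 2748 bins of 1 Mb that held any peak, every Hodgkin line lay below both non-Hodgkin lines in 13.1%. The 2 of 11 windows stand beside that background, which is of unlike size. The windows are 0.8 to 24 Mb long, so 13.1% is not the rate for windows. Of the 55 bins that touch a window, 7 had the Hodgkin lines all below and 7 all above, against 13.1% and 22.7% over all bins. L1236 bears on the window count, since without it both remaining Hodgkin lines lay below both non-Hodgkin lines in 8 of the 11 windows. Fewer lines separate more easily, and the share over all bins was not computed without L1236. The 8 therefore has no background beside it. With lists of equal length no window separated the groups.

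Every window but the narrow one held 1 long stretch with no peak in any line. Its length was 3.00 Mb on chromosomes 4, 5, 7 and 8, between 3.06 and 3.11 Mb on chromosomes 2, 6 and 11, 2.48 Mb on chromosome 10, 9.80 Mb on chromosome 16 and 20.3 Mb on chromosome 1. Members crowded against its ends. Within 100 kb of the 20 ends lay 631 peaks of L1236 (38.5% of its window peaks), 160 of Namalwa (43.2%), 166 of L428 (30.5%), 137 of L591 (22.7%) and 218 of Reh (19.6%). The ends are set by the outermost peaks, so that some peak touches each end is given by their definition. An L1236 peak set every end except the long-arm ends of chromosomes 4, 5 and 7, which a Reh peak set. There the nearest L1236 peak lay 1.73, 0.08 and 0.03 kb away. Counts near the ends therefore favour L1236 to an extent that was not tested.

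The crowded peaks ranked high in score, and their median rank was lowest in L1236. A percentile here is the rank of a peak's score, the authors' peak area, within its own list. Within 100 kb of an end the median percentile was 89.7 in Namalwa and 89.03 in L428, against 78.2 in L591, 69.8 in Reh and 58.04 in L1236. From 300 kb to 1 Mb it was 56.7, 47.3, 50.0, 41.6 and 48.1 for the lines as just ordered. Beyond 2 Mb it lay between 28.2 in Reh and 50.1 in L591. The leading 1% of a list by score made up 25.3% of the L428 peaks within 100 kb, 23.4% of those of L591, 22.02% of those of Reh, 14.4% of those of Namalwa and 7.61% of those of L1236.

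**Figure D2:**
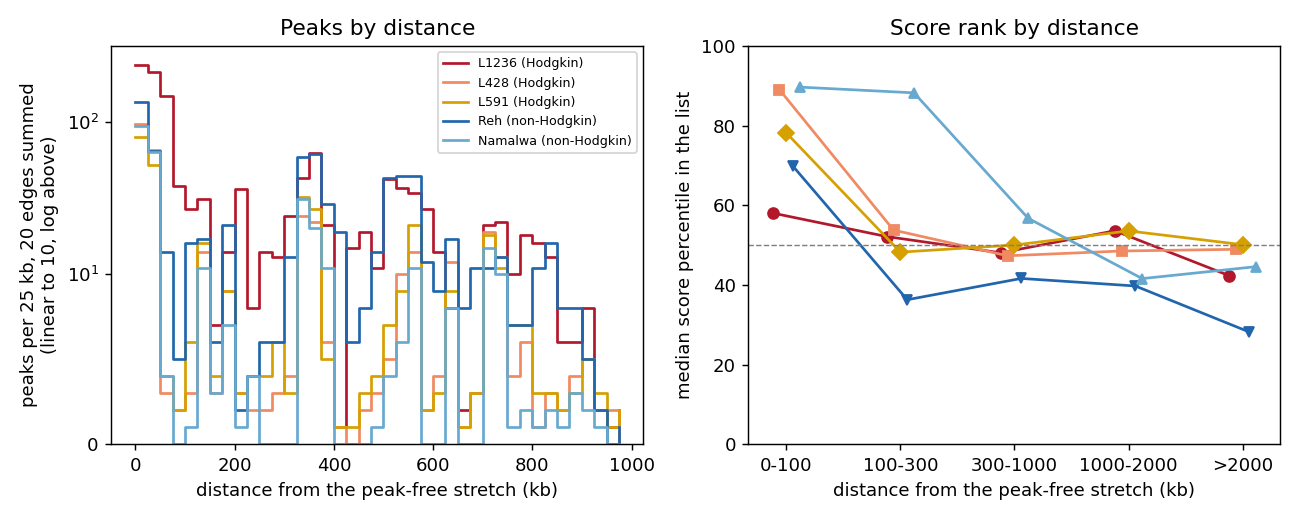
Left, number of window peaks per 25 kb (vertical axis, linear to 10 and logarithmic above) by distance in kb from the peak-free stretch, summed over its 20 ends, 1 curve per line. Right, median score percentile by distance band. All lines are densest and highest in rank next to the stretch, and the L1236 curve runs above the others over the first 100 kb while its median percentile there, 58.04, is the lowest.

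At some ends the peaks of L428, L591, Reh and Namalwa formed a block that stopped at nearly the same base. Blocks were followed from the peak nearest the end, allowing gaps up to 10 kb, and the ends described were picked after their values were seen. On the short-arm side of chromosome 8 the block ended 18.08 kb out in each of these 4 lines. On its long-arm side the block ended at 17.5 kb in L428 and Namalwa and at 17.6 kb in L591 and Reh. Peaks covered 82.7% to 96.4% of the bases of the short-arm block in those 4 lines. On the long-arm side of chromosome 16 the block ended at 49.9 kb in the same 4 lines, with 83.9% of bases under peaks in L428, 89.8% in Namalwa, 92.5% in L591 and 98.5% in Reh. On the long-arm side of chromosome 5 it ended between 35.4 and 35.7 kb, and on the short-arm side of chromosome 6 between 6.53 and 6.75 kb in all 5 lines. Other ends had no common limit, such as the short-arm side of chromosome 2, where the block ended at 36.5 kb in L428 and Namalwa, 45.1 kb in L591 and 58.6 kb in Reh.

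The L1236 blocks ran past these limits, except on the short-arm side of chromosome 6, where the L1236 block ended at 6.75 kb. Its blocks reached 78.6 kb and 67.9 kb on the short-arm and long-arm sides of chromosome 8, 70.5 kb on the long arm of chromosome 16 and 116 kb on the long arm of chromosome 5. The longer blocks were less densely covered. The L1236 block on the short arm of chromosome 8 had 46.0% of its bases under peaks and a median percentile of 60.0, against 96.6 to 99.4 in the other lines. A few peaks of the other lines also lay past the limit there. Within 100 kb L428 had 25 peaks, L591 17, Reh 14 and Namalwa 26, against 21, 15, 12 and 23 in their blocks.

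L1236 also had crowded ends where other lines had next to nothing. On the short-arm side of chromosome 10 it had 76 peaks within 100 kb, Reh had 1 and L428, L591 and Namalwa had none. On the short-arm side of chromosome 5 it had 60 and none of the others had any. On chromosome 7 it had 39 on the short-arm side and 21 on the long-arm side, where the other lines had 0 to 3. On the short-arm side of chromosome 16 it had 31, and each other line had 1. The single peaks of those 4 lines lay at one place, 45.8 to 46.1 kb from the end. In all, L1236 had at least 1 peak within 100 kb of each of the 20 ends and 10 or more at 17 of them. That it had at least 1 is given by definition wherever its own peak set the end. L428 had 10 or more at 7 ends, L591 at 6, Reh at 10 and Namalwa at 6. The median percentiles of these L1236 peaks were 41.6 on chromosome 10, 48.1 on chromosome 5, 42.9 and 60.7 on the short and long arms of chromosome 7, and 48.7 on chromosome 16. The L1236 blocks on these short-arm sides were thinly covered. Peaks took up 24.8% of the bases on chromosome 10, 17.6% on chromosome 5, 10.1% on chromosome 7 and 8.58% on chromosome 16. Other ends where L1236 had the most peaks held higher ranks. On the short-arm side of chromosome 4 its 29 peaks had a median of 95.1, where Reh had 11 peaks, L591 2 and the rest none. On the long-arm side of chromosome 6 its 21 peaks had a median of 80.0, where L591 had 2, Reh 1 and the rest none.

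The opposite sides of the same chromosomes were not bare in the other lines. On the long-arm side of chromosome 5, L428 had 35 peaks within 100 kb, L591 22, Reh 47 and Namalwa 23, beside 55 in L1236. On the long-arm side of chromosome 10 the counts were 18, 19, 25 and 17, beside 43 in L1236. Chromosome 7 differed in that neither side was crowded outside L1236.

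**Figure D3:**
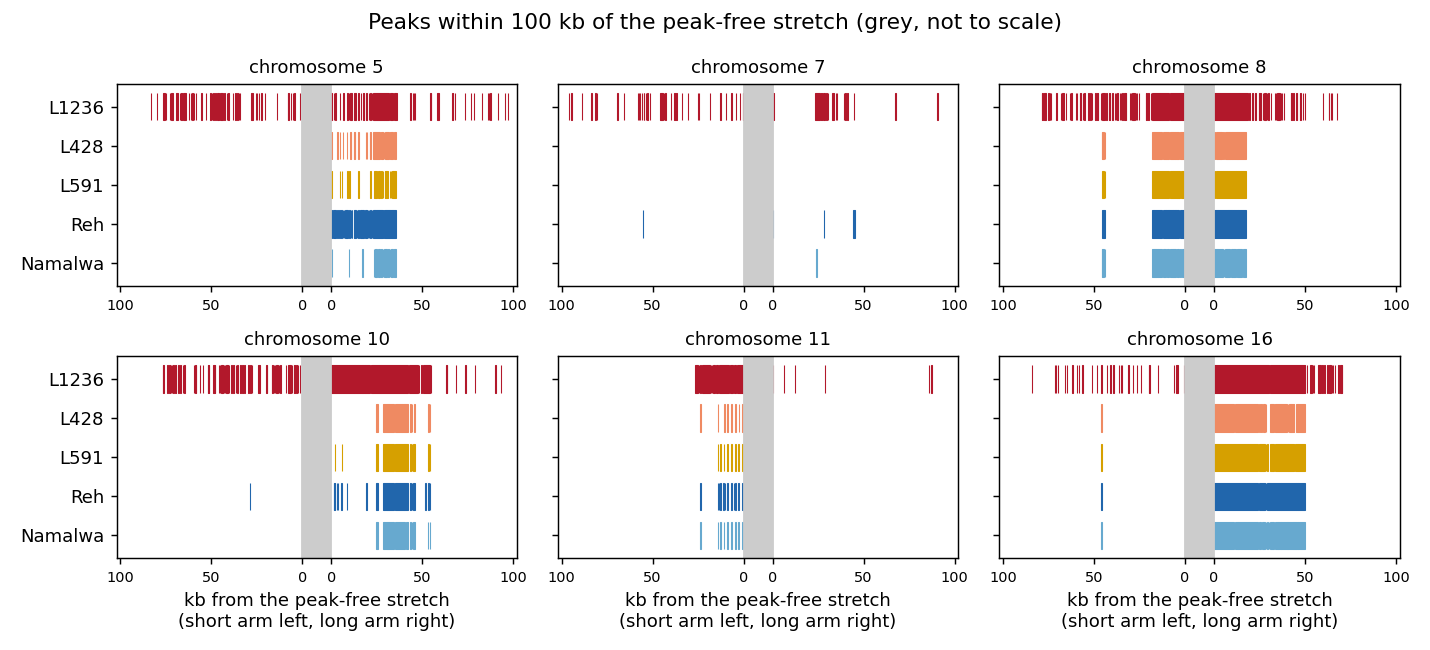
Peaks within 100 kb of the peak-free stretch on 6 chromosomes, 1 row per line, each bar a peak drawn at its width (narrow peaks at the width of the line). Horizontal axis, distance in kb from the stretch (grey), short arm on the left. L428, L591, Reh and Namalwa share blocks with common limits, such as 18.08 kb on the short-arm side of chromosome 8. L1236 also has many peaks on the short-arm sides of chromosomes 5, 7, 10 and 16, where they cover 8.58% to 24.8% of the bases of its blocks.

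Of 4 measures compared between window peaks and other peaks, only the presence of a close neighbour differed in the same direction in every list. Another peak of the same list lay within 10 kb for 92.7% of window peaks and 64.8% of other peaks in L1236, 84.1% and 35.2% in Namalwa, and 87.9% and 67.6% in Reh. It did so for 78.7% and 54.5% in L428 and for 72.4% and 55.1% in L591. The mean difference was 27.7 percentage points ± 12.5 (SD, n = 5), higher in 5 of 5 lists. The two-sided exact sign-flip permutation p was 0.0625, the smallest that 5 lists allow, and 0.25 after adjustment over 4 measures. Without runs of 10 or more peaks, described next, the difference was 10.8 points.

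Runs of at least 10 peaks with gaps up to 10 kb held 75.6% of the window peaks of L1236 and 9.53% of its other peaks. In Namalwa the shares were 60.0% and 2.91%, in Reh 59.6% and 8.25%, in L428 43.2% and 4.29%, and in L591 36.1% and 2.45%. Joined across lines, the runs in the windows formed 50 run regions. In 7 of them all 5 lines had a run and in 33 only 1 line had, which was L1236 at 21, Reh at 11 and L591 at 1. A run in 1 line alone can rest on the limit of 10 peaks. On chromosome 4 from 49206851 to 49240170 Reh had 10 peaks, L1236 9, L591 8, Namalwa 8 and L428 7. At 8 of the 21 L1236 runs no other line had a single peak. Where a run lay next to the stretch it could also be a block described above, and 16 run regions lay within 1 kb of an end.

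The run region with the most peaks was shared by every line. It lay on chromosome 4 from 48942821 to 49028370, 327 kb short of the stretch, and held 83 peaks in Reh, 55 in Namalwa, 54 in L1236, 47 in L591 and 42 in L428. The lines' median percentiles were middling, from 29.5 in L428 to 65.8 in Reh. A neighbouring region on chromosome 4 from 48787921 to 48879130 held 63 peaks in L1236 and 45 in Reh, but 19 in L591, 14 in L428 and 8 in Namalwa.

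Runs seen mainly in Reh lay on chromosomes 1 and 2. On chromosome 1 from 141792601 to 141909080 Reh had 71 peaks, L591 7, Namalwa 4, L1236 2 and L428 1. On chromosome 2 from 91072931 to 91188890 Reh again had 71, L1236 10, L591 2, and L428 and Namalwa 1 each. Another on chromosome 1 from 142268001 to 142359980 held 35 Reh peaks and at most 2 of any other line. Median percentiles of the Reh peaks in these 3 regions were 38.6, 43.7 and 26.5.

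Runs seen mainly in L1236 were more numerous. Away from the ends, chromosome 11 had 67 L1236 peaks from 48761581 to 48857050 and 57 from 50601261 to 50740270, with no more than 1 peak of any other line in either. Chromosome 16 had 57 L1236 peaks from 33772531 to 33821540, where Reh had 2 and the rest none, and 30 from 34038991 to 34054520, where no other line had any. The last of these had a median percentile of 76.1, so not all L1236 runs were weak.

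**Figure D4:**
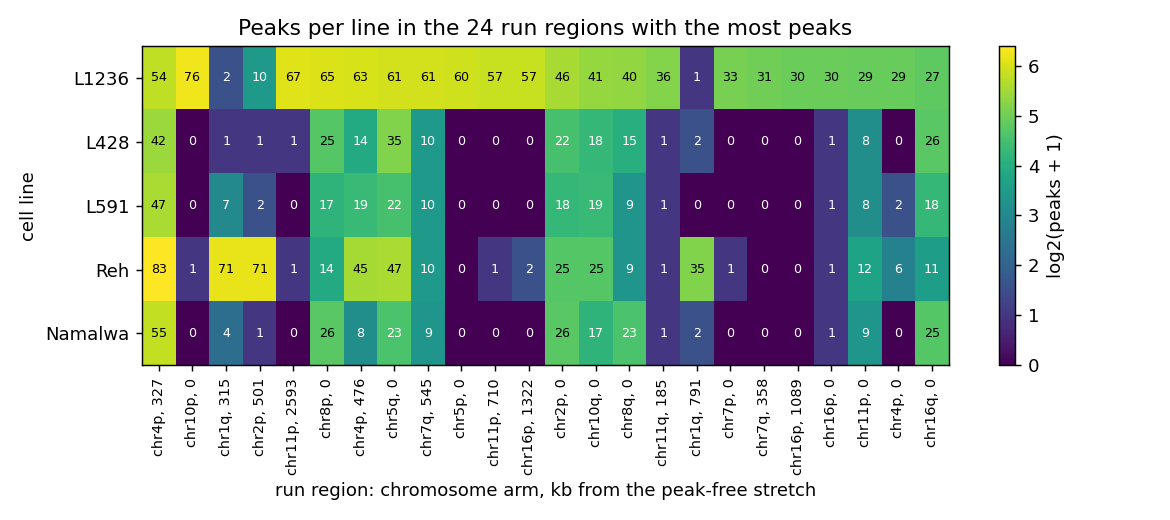
Number of peaks per line (rows) in the 24 run regions with the most peaks (columns, labelled by chromosome arm and kb from the peak-free stretch). Colour is log2(peaks + 1), and each cell prints its count. The first column, on chromosome 4, is filled in all lines (42 to 83 peaks), and several columns hold L1236 peaks alone, such as the short arm of chromosome 5 with 60.

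The highest-ranking member in every line was the same region. It spanned chromosome 1 from 121182221 to 121187060, against the short-arm end of the stretch, at percentile 99.99 in L1236, L428 and L591, 99.996 in Reh and 99.98 in Namalwa. Its score per bp was 114 times the list median in Namalwa, 110 times in Reh, 107 times in L1236, 69.2 times in L591 and 52.2 times in L428. Ranked by their lowest percentile in any line, the leading 10 regions found in every line were spread unevenly. Of these, 3 were on chromosome 10, 2 on chromosome 16 and 1 each on chromosomes 1, 2, 6, 7 and 8, and 9 of the 10 had a lowest percentile of at least 99.3. A pair of these lay well away from an end, on chromosome 7 from 61604481 to 61611950 (545 kb) and on chromosome 10 from 41916591 to 41920660 (242 kb).

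The remaining windows had lower leaders, each present in all 5 lines. On chromosome 4 it was 49013381 to 49015110, at percentiles from 89.5 in L591 to 99.7 in Reh. On chromosome 5 it was 49475471 to 49477270, from 95.9 in L591 and Namalwa to 99.5 in Reh. On chromosome 11 it was 51444731 to 51446050, from 93.8 in L428 to 99.7 in L1236. The narrow chromosome 2 window led with 88707851 to 88709100, at 99.6 in L591, 99.004 in L428, 98.8 in L1236, 98.7 in Reh and 93.9 in Namalwa. That region was 1250 bp wide and 1 peak in each line.

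The widest member of every list began at the long-arm end of the chromosome 16 stretch. It ran from 44943201 to 44973230 in L1236 (30030 bp), to 44967610 in L591 (24390 bp), to 44967570 in Reh (24350 bp) and to 44954410 in both L428 (11150 bp) and Namalwa (11180 bp). A single L1236 peak often covered what was several peaks elsewhere. On chromosome 8 from 46958021 to 46976830, L1236 had 1 peak, L591 and Reh 9 each, L428 15 and Namalwa 23. Counts of peaks therefore depend on how each list was divided, and with peaks up to 1 kb apart counted once the shares in the windows were 3.29% in L1236, 2.98% in Namalwa, 2.90% in Reh, 1.59% in L591 and 1.48% in L428.

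In the full lists, the median member did not differ from other peaks in the same direction in every line, in score or in width. The extremes stood out. The median percentile of window peaks was 75.2 in Namalwa, 57.0 in L428, 54.7 in L591, 52.6 in L1236 and 42.1 in Reh. Set against the other peaks of each list, the difference averaged 6.56 points ± 12.5 (SD, n = 5), positive in 4 of 5 lists and negative in Reh (exact sign-flip permutation p = 0.375, adjusted 0.5). It was 1.62 points without Namalwa and 10.3 without Reh. Median widths were 260, 320, 440, 270 and 320 bp against 310, 320, 450, 320 and 290 bp for other peaks, in the order L1236, L428, L591, Reh and Namalwa. The mean difference of -16 bp ± 34.4 (SD, n = 5) was smaller than its spread (exact sign-flip permutation p = 0.375, adjusted 0.5). Leaving out Namalwa made it -27.5 bp, and leaving out L1236 or Reh -7.5 bp. With each list cut to 5760 peaks, the length of the Namalwa list, the percentile difference was between 17.5 and 28.6 points and positive in all 5 lists. In Reh it turned from -8.24 to 28.6, and in Namalwa, not cut, it stayed at 26.3. Ranks were then taken among fewer peaks, so these values are not separate support beside the shares at the top of the lists, given next. With score per bp in place of score, in the full lists, the percentile difference averaged 16.8 points. It then ranged from -2.08 in Reh to 34.7 in Namalwa.

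At the top of the lists the windows held a larger share than among all peaks in every line. Of the leading 1% of peaks by score, 27 of 58 lay in the windows in Namalwa (46.6%), 79 of 257 in L1236 (30.7%), 71 of 280 in Reh (25.4%), 51 of 234 in L428 (21.8%) and 42 of 267 in L591 (15.7%). Those shares were set beside the 2.27% to 6.42% of all peaks after the values had been seen, and no test was run. Of peaks 1500 bp or wider, the windows held 21 of 29 in Namalwa, 46 of 140 in L1236, 25 of 78 in L428, 39 of 166 in Reh and 34 of 371 in L591.

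Between the groups, the median percentile of window peaks did not separate the lines. The Hodgkin mean was 54.8 ± 2.19 (SD, n = 3) and the non-Hodgkin mean 58.7, from values of 42.1 and 75.2 on either side (two-sided exact permutation p = 0.8, adjusted 0.8). At the labelled 6 U/ml the mean of L1236 and L428 was 12.7 points above Reh, and at the labelled 12 U/ml the difference of L591 from Namalwa was -20.6 points (54.7 against 75.2). Leaving out Namalwa therefore turned the difference from -3.89 to 12.7 points.

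Sharing among lines was examined over merged regions, each made of overlapping peaks of any line. The windows held 2381 of 59212 regions. A peak of all 5 lines was found at 124 of them (5.21%, exact 95% interval 4.35 to 6.18), close to the 5.12% over all regions, and at 5.11% of the regions elsewhere. Chromosome 4 had the most, 37 of its 237 regions (15.6%), and the other windows with over 100 regions had 3.08% to 6.37%. Without L1236, regions shared by the 4 remaining lines were 7.59 percentage points more frequent in the windows than elsewhere.

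Regions with a peak in 1 line alone were 1897 of 2381 in the windows (79.7%, 78.0 to 81.3), against 62.9% over all regions. Of these 1897 regions, 1231 were of L1236 alone and 527 of Reh alone. Elsewhere 35328 of 56831 regions were of 1 line alone, 10509 of them of L1236 and 12200 of Reh. The excess in the windows was thus mainly of L1236. As a share of each line's own regions, the lines differed in direction. In L1236, 77.9% of its window regions had no peak in another line, against 46.2% elsewhere. In Reh the values were 57.2% and 48.5%. In Namalwa they were 4.37% and 0.581%, from only 8 of 183 regions, 7 of them on chromosome 1, and 28 of 4817. L428 and L591 went the other way, with 12.6% against 24.9% and 19.6% against 28.8%. Over the 5 lines the mean difference was 4.53 percentage points ± 17.5 (SD, n = 5), positive in 3 of 5 (exact sign-flip permutation p = 0.688, adjusted 0.688). It was -5.28 points without L1236, with the regions merged anew. Within 100 kb of an end, 528 of 671 regions (78.7%) were found in L1236 alone. The share was 62.2% from 100 to 300 kb and 40.6% from 300 kb to 1 Mb. It was 34.2% from 1 to 2 Mb and 37.7% beyond 2 Mb. Over all regions, 11740 of 59212 were of L1236 alone.

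**Figure D5:**
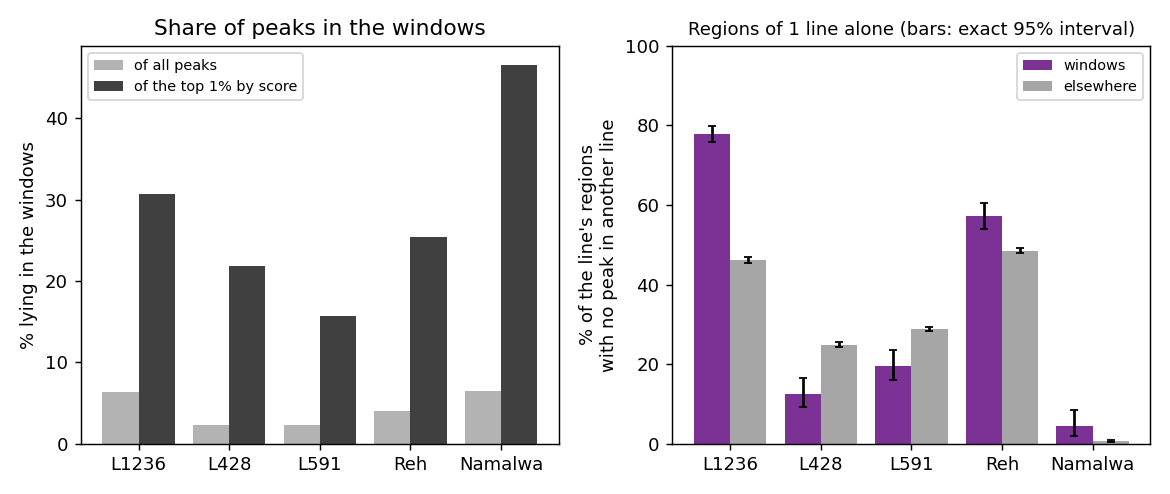
Left, percent of all peaks and of the leading 1% of peaks by score that lie in the windows, for each line (1 library each, no error bars). Right, percent of a line's merged regions with no peak in another line, in the windows and elsewhere, with exact 95% intervals for counting error. The share of leading peaks exceeds that of all peaks in the 5 lists, and regions of 1 line alone are commoner in the windows for L1236 (77.9% against 46.2%) but rarer for L428 and L591.

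Peaks of different lines covered the same bases more in the windows than elsewhere. The Jaccard index, the bases shared by a pair of lists over the bases covered by either, was higher in the windows for all 10 pairs. It was 0.569 in the windows and 0.356 elsewhere for L428 with L591, 0.591 and 0.149 for L428 with Namalwa, and 0.406 and 0.165 for Reh with Namalwa. Pairs with L1236 gained least, with 0.251 to 0.284 in the windows. Counted by peaks, the picture was mixed. Of L1236 peaks, 15.1% in the windows and 40.4% elsewhere overlapped a peak of L428, and 17.6% and 46.5% one of L591. The values were 20.7% and 32.3% with Reh and 10.6% and 13.7% with Namalwa. Lower shares in the windows were also found for Reh peaks with L428 and L591, and for Namalwa peaks with Reh. For every other line and partner the share was higher in the windows. Peak limits that coincided within 10 bp at both ends were found for 6.74% to 11.9% of overlapping peaks in the 6 pairs without L1236, against 1.14% to 2.89% elsewhere, so higher in the windows. Of the 4 pairs with L1236, L428 (2.22% and 1.59%) and L591 (1.42% and 0.972%) were higher in the windows. Reh (0.399% and 0.730%) and Namalwa (0.299% and 1.53%) were lower there. The 10 pairs reuse the same 5 libraries, so no p-value was attached.

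Regions held by 1 group were rare as a share of all window regions. Regions of 1 line alone were 79.7% of those in the windows against 62.9% over all regions. This lowers the share of every other class in the windows, here and in the next paragraph. Shares among regions of more than 1 line were not computed. Only 31 window regions (1.30%, 0.886 to 1.84) had peaks of L1236, L428 and L591 together without Reh or Namalwa, against 4.33% over all regions. Most were on chromosomes 2 and 1, with 11 in the larger chromosome 2 window and 8 on chromosome 1. The leading ones lay far from the stretch, on chromosome 2 from 96903521 to 96904470 (2110 kb away, percentile 97.2 in L428, 89.4 in L1236 and 81.3 in L591) and on chromosome 1 from 143944631 to 143945410 (77.6, 91.8 and 96.6). A pair on chromosome 1 at 120388931 to 120389700 and 120403401 to 120403980 and a region on chromosome 2 at 96515311 to 96516070 followed, at percentiles of 70.9 or more in each Hodgkin line.

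Both non-Hodgkin lines and no Hodgkin line had a peak at 13 window regions (0.546%, 0.291 to 0.932), against 1.04% over all regions. Of these, 6 were on chromosome 1, led by 142308611 to 142309390 where Reh was at percentile 92.0 and Namalwa at 61.2. Next came 141827011 to 141827660 at 82.6 and 57.0. The one on chromosome 5 from 49457921 to 49458640 lay 16.6 kb from the stretch, at 85.9 and 38.4. Every line but L1236 had a peak at 10 regions (0.420%, against 1.17% over all regions).

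The strongest members found in 1 line alone also differed in place. That of L1236 ended a run at the long-arm end of chromosome 6, from 61971961 to 61972450, at percentile 99.7. That of L428, on the short arm of chromosome 6 from 57120421 to 57121410, reached 97.7. L591 had one on chromosome 16 from 31965891 to 31967160 at 89.9, and Reh one on chromosome 2 from 91125171 to 91126390 at 87.7. The Namalwa one, on chromosome 1 from 141858721 to 141859090, was at 54.2 only.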

How the data were processed

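Reads had been mapped to hg18 with Bowtie 1.00, per the submitters' processing notes, then elongated to 146 bp and binned at 10 bp, per the names inside the files (the deposited files have no header). Which program called the peaks, at what cutoff and from how many reads is not given in the sources used here. Each deposited peak carries a score, the authors' area under the peak, with no stated scaling to depth. It was used only as a rank within a list or relative to the list's own median. Each library has its own deposited list. Positions are 1-based.

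Window peaks were counted against all peaks of chromosomes 1 to 22 and X. Peaks on Y and on mitochondrial DNA were left out. Peaks that overlapped, in whichever line, made 1 merged region. Hodgkin and non-Hodgkin lines were compared by exact permutation (10 assignments of lines to groups of 3 and 2), and window peaks with other peaks by exact sign-flip permutation over the 5 lists. Such p-values reflect only how far single libraries of different lines spread. Regions are named by percentile: the leading one of each window by the sum over lists, the 10 leading of all 5 lines and the 5 leading of each group-only class by the lowest percentile, the leading one of each line alone, the widest peaks, and run regions chosen after their values were seen. Windows, lists and tests were chosen with earlier results of these data known. The software was Python 3.11.15, numpy 2.4.6, pandas 2.3.3, scipy 1.17.1 and matplotlib 3.10.9, and the counting was tested on simulated lists. No hg18 sequence or annotation was used here, so genes and sequences are not given.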

Additional observations from a re-analysis of the deposited data

How the results depend on the processing

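Read depth and calling thresholds are unknown, and 5 lists cannot bring a p-value below 0.0625 over lists or 0.1 between groups, so no alternative could pass 0.05. Of 96 alternative values, 8 had the opposite sign, 5 of them for regions shared by all lines, whose difference of 0.0945 points was near 0 and became -0.759 with 200 bp centres, -0.616 with peaks joined, -0.177 without L428 and -0.277 without L591. With score per bp in place of score, the Hodgkin-minus-non-Hodgkin difference in percentile of window peaks was 1.02 instead of -3.89. With lists of equal length the number of windows that separated the groups was 0 instead of 2. Leaving out 1 line gave ranges of 2 to 8 for that number, -20.5 to 12.7 for the percentile difference between groups, -5.28 to 5.53 points for regions of 1 line alone, -2.44 to 7.59 points for regions shared by all lines, 1.62 to 10.3 for the percentile difference of window peaks, -27.5 to -7.5 bp for width, and -2.90 (without L1236) to -0.310 points (without Namalwa) for the share difference. The highest of 8 and 7.59 and the lowest of -5.28 came without L1236, the 12.7 and -2.44 without Namalwa, the -20.5 without Reh, and 4 windows separated the groups without Reh or without Namalwa. No share over all bins was computed for the window counts with a line left out. Joining close peaks, the 100 kb limit and the removal of runs were chosen after seeing the data. No paired analysis was possible because the labels give the lines no shared number.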

Other observations

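On 3 of 13 other chromosomes, numbers 3, 19 and 20, L1236 had the most peaks by a wide margin next to a peak-free stretch. On each of the 13 other chromosomes the widest stretch without a peak was taken, and whether it holds the centromere was not tested. It need not. On chromosome 13 it ran from 80188921 to 83459390 and on chromosome X from 32462111 to 37430070, both inside 1 arm. Next to the stretch of chromosome 3, from 90586691 to 94989710, L1236 had 69 peaks within 100 kb and L428, L591, Reh and Namalwa had none. Next to that of chromosome 20, from 26267561 to 28060640, L1236 had 48 peaks, Reh 2, L428 and L591 1 each and Namalwa none. On chromosome 19, from 24423191 to 32423520, the counts were 54 in L1236, 20 in Reh, 12 in L591, 12 in Namalwa and 11 in L428. Chromosome 21, from 10209951 to 13260140, was crowded in Reh as well, with 44 peaks beside 31 in L1236 and 1 to 4 in the other lines. On chromosome 9 Reh had 15, L428 12, L1236 10, Namalwa 5 and L591 4, and on chromosome 22 Reh had 8, L591 6, L428 4, L1236 3 and Namalwa none. On the remaining 7 chromosomes, which include 13 and X, L1236 had 0 or 1. These low counts do not tell how it stood next to the centromeres there. The L1236 peaks on chromosomes 3, 20, 19 and 21 had median percentiles of 45.3, 48.7, 44.0 and 66.7. Over the 13 chromosomes, 0.850% of the L1236 list, 0.382% of the Namalwa list, 0.340% of the Reh list, 0.163% of the L428 list and 0.124% of the L591 list lay within 100 kb. These are not shares next to centromeres, since some of the stretches lie elsewhere.

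Spearman correlations of score percentiles over shared regions were computed as a description, across regions and with no p-value. In the windows rho was 0.857 for Reh with Namalwa (171 regions, against 0.728 elsewhere) and 0.735 for L428 with Namalwa (140 regions, against 0.457 elsewhere). It was lower in the windows than elsewhere for L591 with L1236 (0.316 and 0.404) and for L591 with Reh (0.615 and 0.631).

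Bins of 1 Mb crowded with peaks often lay in the windows in some lines only. Of the 20 fullest bins of each list, 9 touched a window in Namalwa, 7 in L1236, 5 in Reh, 1 in L591 and 0 in L428, where 2.001% of all bins with a peak do so.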
